A study of Arabidopsis thaliana with 6 samples.

Results

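Root hairs are tubular outgrowths of single epidermal cells that enlarge the surface of the root. The 10 genes described here are, in Arabidopsis thaliana, the regulators RHD6 (AT1G66470), RSL1 (AT5G37800), RSL3 (AT2G14760), RSL2 (AT4G33880), RSL4 (AT1G27740) and LRL3 (AT5G58010) and the growth genes RHD2 (AT5G51060), EXPA7 (AT1G12560), EXPA18 (AT1G62980) and COW1 (AT4G34580). They were picked by locus, with no threshold on a measured value, and all 10 were found among the 32627 loci measured. Earlier results of these data were known when these genes and the gene lists below were chosen. RSL3 had 2 transcript models and each of the other genes had 1.

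The study compared roots grown in darkness with roots grown in light, on 3 arrays for each group. Seedlings of both groups grew for 12 days on half-strength Murashige and Skoog medium with their shoots lit by white light (75 µmol photons m-2 s-1). The roots of 1 group, which the labels call the control, received the same light, and the roots of the other were kept dark. Each array came from a separate plate of whole roots, and the labels name no strain or mutation, so every cell type of the root contributes to a value. The comparison asks which root transcripts depend on light that reaches the root itself.

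A hierarchy of basic helix-loop-helix (bHLH) transcription factors controls root hair growth. RHD6 and RSL1 act first and commit a hair cell to make a hair, and they act through the later factors RSL2, RSL3 and RSL4, of which RSL4 is the best known for setting hair length. LRL3 belongs to a separate bHLH subfamily that also promotes hair growth. Downstream, the hair tip needs reactive oxygen from the NADPH oxidase RHD2, wall-loosening expansins such as EXPA7 and EXPA18, and the phosphatidylinositol transfer protein COW1.

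Values are the deposited log2 expression values, and differences are light minus dark. The values run from 4.70 to 15.92 with a median of 11.84 on each array. Signals of different probes cannot be ranked against each other, so levels are compared only between arrays. Light replicate 3 stood apart from its group across all transcript models: it correlated at 0.9885 and 0.9887 with light replicates 1 and 2, which correlated at 0.9921 with each other. Results on the root hair genes are therefore given for each light array.

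None of the 10 genes passed limma's test at an adjusted p under 0.05, where 5.73% of all loci passed. At an unadjusted p under 0.05 limma found 5 lower in light and 0 higher, where the background was 12.1% and 9.08% of loci. Those 5 were RSL3, RSL2, LRL3, RSL1 and COW1, and in these 5 every light array lay below every dark array, which 16.2% of all loci showed. RHD6, RSL4, RHD2, EXPA7 and EXPA18 overlapped between the groups. The median difference of the 10 genes was -0.31, against -0.01 over all loci, and 8 of the 10 differences were below 0, as were 52.5% of those of all loci.

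**Figure D1:**
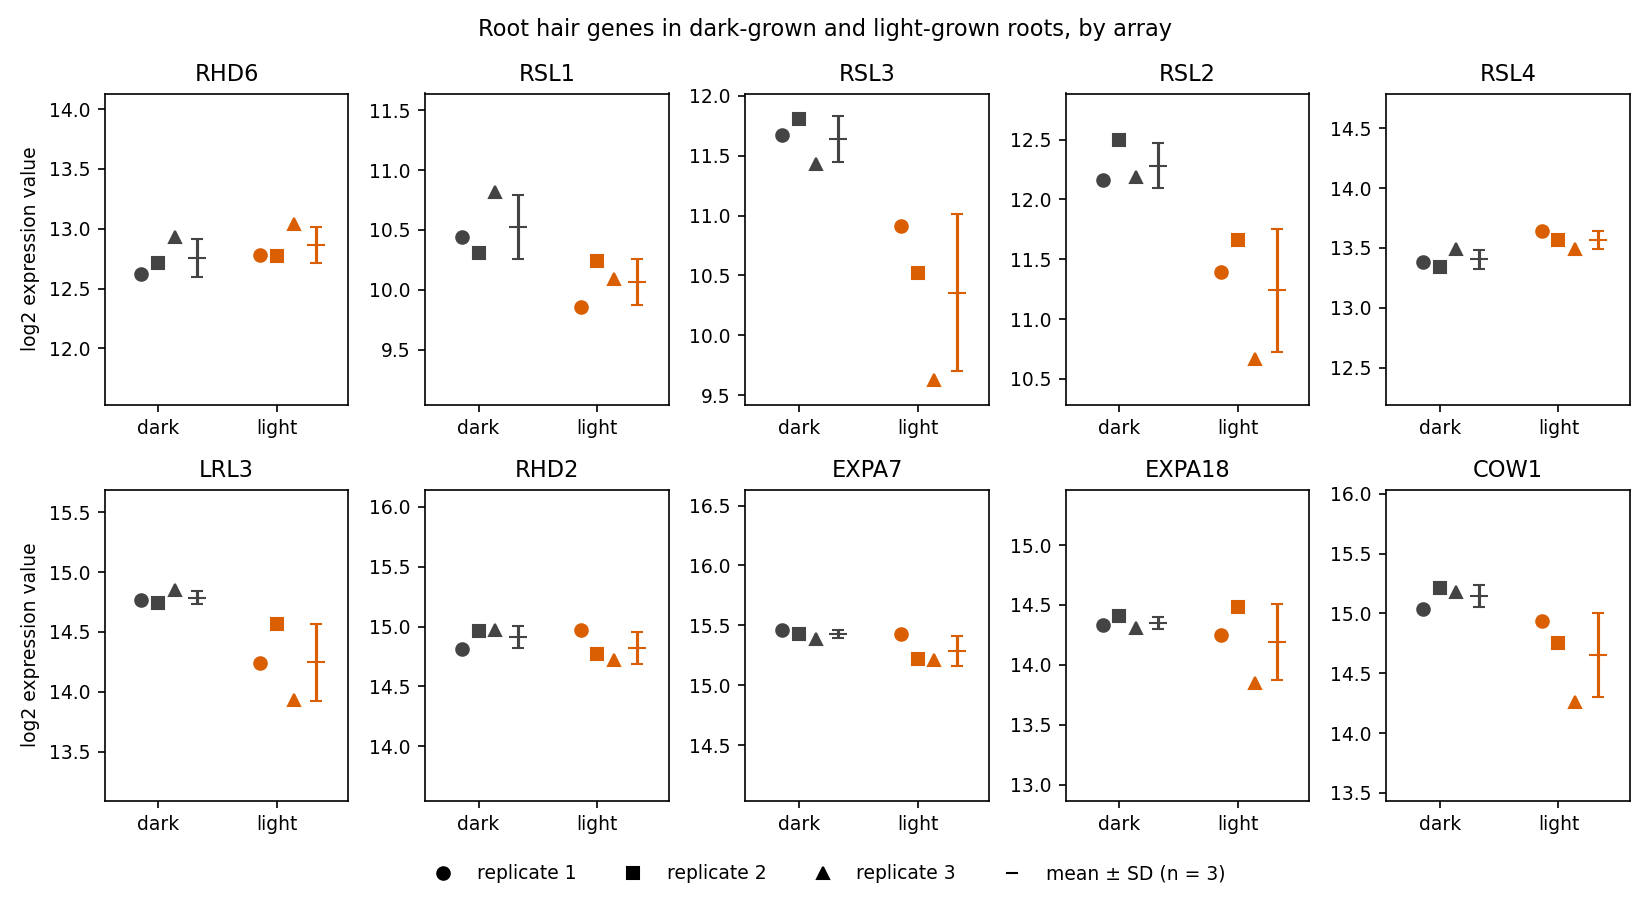
Log2 expression value (vertical axis, each panel spanning the same number of log2 units) of each root hair gene in dark-grown and light-grown roots, with circles, squares and triangles for replicates 1, 2 and 3 and a bar for the mean ± SD (n = 3). The groups do not overlap for RSL1, RSL3, RSL2, LRL3 and COW1, and light replicate 3 is the lowest light array for 8 of the 10 genes.

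Among the early regulators, RHD6 read 12.62, 12.71 and 12.93 on the dark arrays and 12.78, 12.77 and 13.04 on the light arrays. Light replicates 1 and 2 lay inside the range of the dark arrays and light replicate 3 just above it. The difference was 0.11 (SE 0.12, adjusted p = 0.701 in limma), with a 95% confidence interval from -0.19 to 0.41. With 1 array left out it ranged from 0.02 (light replicate 3) to 0.20 (dark replicate 3).

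RSL1, the closest relative of RHD6 and partly redundant with it, read 10.44, 10.31 and 10.82 in dark and 9.86, 10.24 and 10.09 in light. All 3 light arrays were below the dark ones, although light replicate 2 was only slightly below dark replicate 2. The means were 10.52 ± 0.27 and 10.06 ± 0.19 (SD, n = 3), a difference of -0.46 (SE 0.17). It missed the threshold (adjusted p = 0.199 in limma), and its interval ran from -0.88 to -0.04.

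Among the later regulators, RSL3 and RSL2 had the 2 largest differences of the 10 genes. RSL3 read 11.67, 11.81 and 11.43 in dark and 10.91, 10.52 and 9.63 in light. Its light arrays were all lower and were themselves spread widely, with light replicate 3 far below the other two. The means were 11.64 ± 0.19 and 10.35 ± 0.66 (SD, n = 3), a 2.43-fold lower light mean on the linear scale.

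The difference of RSL3 was -1.28 (SE 0.33), with an interval from -2.11 to -0.46 and adjusted p = 0.0963 in limma. Its second transcript model, at a dimmer signal, read 8.32, 8.77 and 8.50 in dark and 7.68, 7.46 and 6.57 in light. That model differed by -1.29 (SE 0.31, adjusted p = 0.0785 in limma) and had the same order of light arrays as the first. Both models report on the same gene and the same RNA, so they are not independent measurements.

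RSL2 read 12.16, 12.50 and 12.19 in dark and 11.39, 11.66 and 10.67 in light. As for RSL3, each light array was below the dark range and light replicate 3 was the lowest. The means were 12.28 ± 0.19 and 11.24 ± 0.51 (SD, n = 3), and the difference was -1.04 (SE 0.27), a 2.06-fold lower light mean. The interval ran from -1.71 to -0.38 (adjusted p = 0.0942 in limma).

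RSL4, the regulator of hair length, read 13.38, 13.34 and 13.49 in dark and 13.64, 13.57 and 13.49 in light. Light replicates 1 and 2 lay above the dark arrays and light replicate 3 equalled the highest of them. The difference was 0.16 (SE 0.08, adjusted p = 0.332 in limma), with an interval from -0.04 to 0.36 that does not overlap the intervals of RSL2 and RSL3. Whether RSL4 differs from the other 2 in its response was not tested directly.

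LRL3 read 14.77, 14.74 and 14.85 in dark and 14.24, 14.57 and 13.93 in light. The dark arrays were close together and the light arrays were all lower, light replicate 3 most of all. The means were 14.79 ± 0.06 and 14.25 ± 0.32 (SD, n = 3). The difference was -0.54 (SE 0.17), with an interval from -0.96 to -0.12 and adjusted p = 0.142 in limma.

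Under a variance prior that follows the signal and is robust to outlying loci, limma called RSL2, RSL3 and LRL3 lower in light, with adjusted p of 0.0247, 0.0264 and 0.0430. That fit called 5.16% of all loci lower. Their differences were the same as before, because only the estimate of the spread changes in that fit. Whole roots were measured, so fewer hair cells and less RNA per hair cell cannot be told apart for these or any of the other genes.

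**Figure D2:**
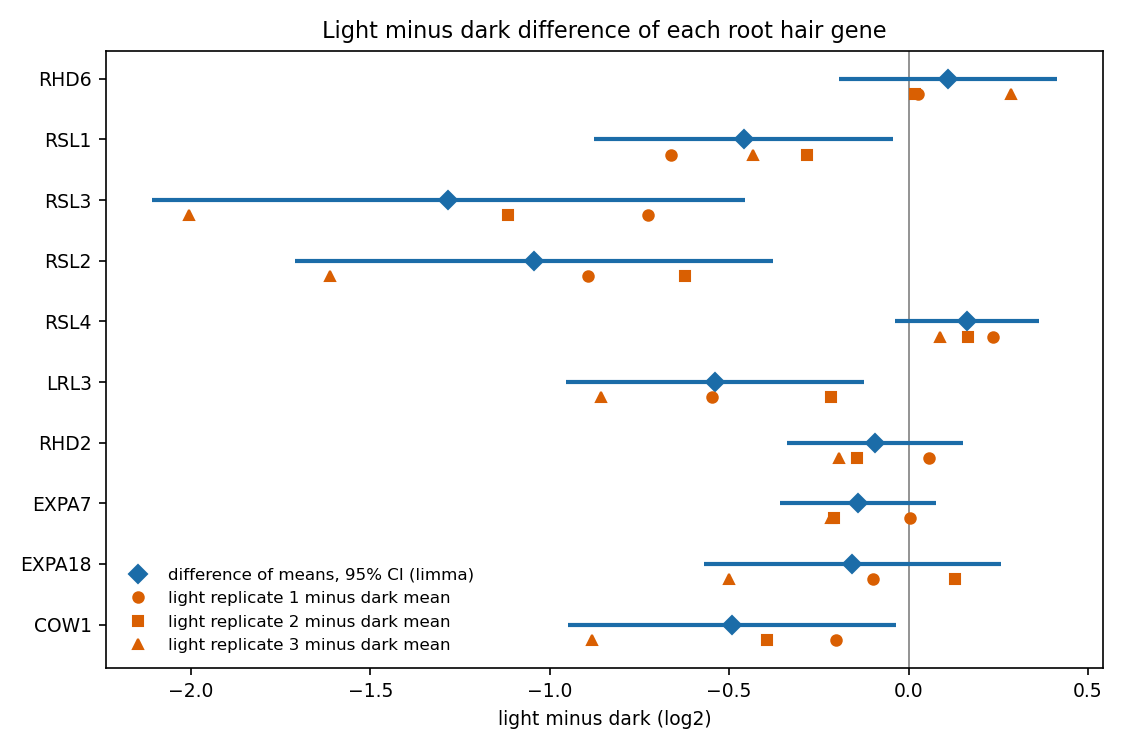
Light minus dark difference (log2, horizontal axis) of each root hair gene. Diamonds and lines are the difference of means with its 95% confidence interval from limma, and the smaller symbols under them are each light array minus the mean of the dark arrays. RSL3 and RSL2 lie farthest to the left at -1.28 and -1.04, and RHD6 and RSL4 lie to the right of 0.

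Of the growth genes, RHD2, whose product makes reactive oxygen at the hair tip, read 14.81, 14.96 and 14.97 in dark and 14.97, 14.77 and 14.72 in light. Light replicate 1 was as high as the highest dark array, and light replicates 2 and 3 were below all of them. The difference was -0.09 (SE 0.10, adjusted p = 0.681 in limma) and its interval, from -0.34 to 0.15, leaves out a 2-fold fall on this scale. With 1 array left out the difference ranged from -0.17 (light replicate 1) to -0.04 (light replicate 3). The mean of RHD2 was only 1.05 below the highest value on the arrays, so a 2-fold rise would reach the top of the scale.

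EXPA7 read 15.46, 15.43 and 15.39 in dark and 15.43, 15.22 and 15.21 in light. Light replicate 1 lay within the dark range and the other light arrays below it. The difference was -0.14 (SE 0.09, adjusted p = 0.448 in limma). The mean of EXPA7 was only 0.56 below the highest value on the arrays, in the brightest of 10 signal classes of models.

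EXPA18 read 14.33, 14.41 and 14.31 in dark and 14.25, 14.48 and 13.85 in light. Light replicate 2 was the highest of the 6 arrays and light replicate 3 the lowest. The difference of -0.16 (SE 0.17, adjusted p = 0.684 in limma) rests on that last array, since without light replicate 3 it was 0.015.

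COW1, which is required for hairs to grow as single straight tubes, read 15.04, 15.21 and 15.18 in dark and 14.94, 14.75 and 14.26 in light. The light arrays were all lower, light replicate 1 by little and light replicate 3 by most. The means were 15.14 ± 0.09 and 14.65 ± 0.35 (SD, n = 3), a difference of -0.49 (SE 0.19, adjusted p = 0.206 in limma). Without light replicate 3 the difference was -0.30 (adjusted p = 0.225 in limma).

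The 3 light arrays did not share 1 size of difference. Relative to the mean of the dark arrays, the median of the 10 genes was -0.15 on light replicate 1, -0.21 on light replicate 2 and -0.47 on light replicate 3, where the medians over all loci were -0.03, -0.04 and -0.01. Light replicate 1 was below all dark arrays for 6 of the 10 genes, light replicate 2 for 7 and light replicate 3 for 8, against 33.6%, 37.0% and 35.3% of all loci. For 7 genes light replicate 3 was the lowest of all 6 arrays, as it was for 23.0% of loci. The exceptions were RHD6, highest on light replicate 3, RSL1, lowest on light replicate 1, and RSL4.

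Without light replicate 3, the median difference of the 10 genes was -0.20, and none of the 10 was called (3.76% of loci were). RSL3 and RSL2 then differed by -0.92 and -0.76 (adjusted p = 0.0702 and 0.0803 in limma), and LRL3 by -0.38 (adjusted p = 0.200). An exact two-sided permutation test on the 6 arrays gave p = 0.1, the smallest that 3 against 3 arrays allow, for each of RSL1, RSL3, RSL2, LRL3 and COW1. Groups that do not overlap always give this p, so it restates their separation and adds no further support. The same test gave p from 0.2 (RSL4) to 0.6 (EXPA18) for RHD6, RSL4, RHD2, EXPA7 and EXPA18.

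Genes that place hair and non-hair cells in the epidermis were measured as a list of 12, of which 1 rose, 1 fell and 10 did not pass limma's test (3.27% of loci rose and 2.46% fell). CPC, a small MYB protein that moves into future hair cells and promotes hair fate, read 12.86, 13.06 and 13.19 in dark and 13.78, 13.62 and 13.86 in light. All light arrays were above all dark arrays, and CPC rose by 0.72 (SE 0.12, adjusted p = 0.0275 in limma). JKD, a zinc finger protein of the ground tissue that takes part in epidermal patterning, fell from 14.01 to 13.56, a difference of -0.45 (SE 0.08, adjusted p = 0.0304 in limma). Leaving out any 1 array ended both calls, with adjusted p from 0.0569 to 0.105 for CPC and from 0.0727 to 0.127 for JKD, and so did a replicate block. Fits without 1 array called fewer of all loci, 543 to 800 higher and 141 to 427 lower, against 1066 and 802 with all arrays.

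Of the 2 markers of non-hair cells, GL2, which represses hair fate, differed by -0.52 (SE 0.12, adjusted p = 0.0736 in limma). GL2 was called lower under the variance prior that follows the signal, as were 5.16% of loci. It was also called lower without models under the 25th percentile of signal, a fit that called more loci in general. WER, which acts upstream of GL2, differed by -0.03 (SE 0.14). The median of the 12 patterning genes was -0.08.

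The list of 27 other genes that act in hair growth or are named for expression in root hairs had 0 that rose and 1 that fell in limma. Over all loci, 3.27% rose and 2.46% fell. At an unadjusted p under 0.05, 9 were lower and 0 higher, where 12.1% and 9.08% of loci were. The median difference was -0.21 and 23 of 27 were below 0, as were 52.5% of loci. In 12 of the 27 every light array was below every dark array, a state that 16.2% of loci were in. RHS17, named as root hair specific, read 13.67, 13.69 and 13.65 in dark and 12.73, 12.93 and 12.15 in light. It fell by 1.07 (SE 0.20, adjusted p = 0.0437 in limma), with the dark arrays almost equal and light replicate 3 the lowest. The call of RHS17 held without light replicate 3 (adjusted p = 0.0216) and was lost without any other 1 array, up to 0.150.

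Hair cell markers PRP3, a proline-rich wall protein, and LRX1, a leucine-rich repeat extensin of the hair wall, differed by -0.21 (SE 0.08) and -0.33 (SE 0.14). Neither passed (adjusted p = 0.228 and 0.267 in limma), and without light replicate 3 LRX1 differed by -0.18. Both are among the 10 genes of the 27 in the brightest signal class. Light replicate 3 was the lowest light array for 22 of the 27, where this held for 34.8% of all loci.

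Other regulators of hair growth, a list of 6, had 0 called by limma (5.73% of loci were) and 3 lower at an unadjusted p under 0.05 (12.1% of loci), with a median of -0.15. GTL1, a trihelix factor that restrains hair growth, differed by -0.37 (SE 0.10, adjusted p = 0.0964 in limma). Under the variance prior that follows the signal, limma called GTL1 lower (adjusted p = 0.0262), as it did 5.16% of loci. LRL1, of the same subfamily as LRL3, differed by -0.26 (SE 0.08, adjusted p = 0.148). Light replicate 3 was the lowest light array for 2 of these 6 genes.

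The NADPH oxidase relatives of RHD2 were a list of 9, of which 0 rose, 2 fell and 7 did not pass (3.27% of loci rose and 2.46% fell). At an unadjusted p under 0.05, 3 were lower and 1 higher, against 12.1% and 9.08% of loci. RBOHB read 15.24, 15.28 and 15.31 in dark and 14.64, 14.40 and 14.05 in light. The groups were far apart and the light arrays spread more than the dark ones, and RBOHB fell by 0.91 (SE 0.16, adjusted p = 0.0318 in limma). AT4G11230, a locus of the list with no symbol in the gene table, fell by 1.08 (SE 0.21, adjusted p = 0.0427). Both calls held without light replicate 3, RBOHB also without light replicate 1, and both were lost without any other 1 array, with adjusted p up to 0.120 and 0.152. The list median was -0.18.

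Of 22 other alpha expansins, 3 rose, 0 fell and 19 did not pass limma's test, where 3.27% of loci rose and 2.46% fell. At an unadjusted p under 0.05, 5 were lower and 3 higher, against 12.1% and 9.08% of loci. Every light array was below every dark array in 6 of the 22 (16.2% of loci) and above in 3 (3920 of 32627 loci). EXPA12 read 9.37, 8.81 and 9.56 in dark and 12.45, 12.20 and 12.72 in light. It rose by 3.21 (SE 0.23, adjusted p = 0.00241 in limma), or 9.25-fold, and light replicate 3 was its highest array. EXPA10 rose by 1.49 (SE 0.13, adjusted p = 0.00423) and EXPA1 by 0.88 (SE 0.13, adjusted p = 0.0194). EXPA12 and EXPA10 were called in every fit without 1 array, whereas EXPA1 was not called without dark replicate 1, dark replicate 2 or light replicate 2 (adjusted p up to 0.0803). The list median was 0.02, and 7 of the 22 were in the dimmest 3 of 10 signal classes.

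**Figure D3:**
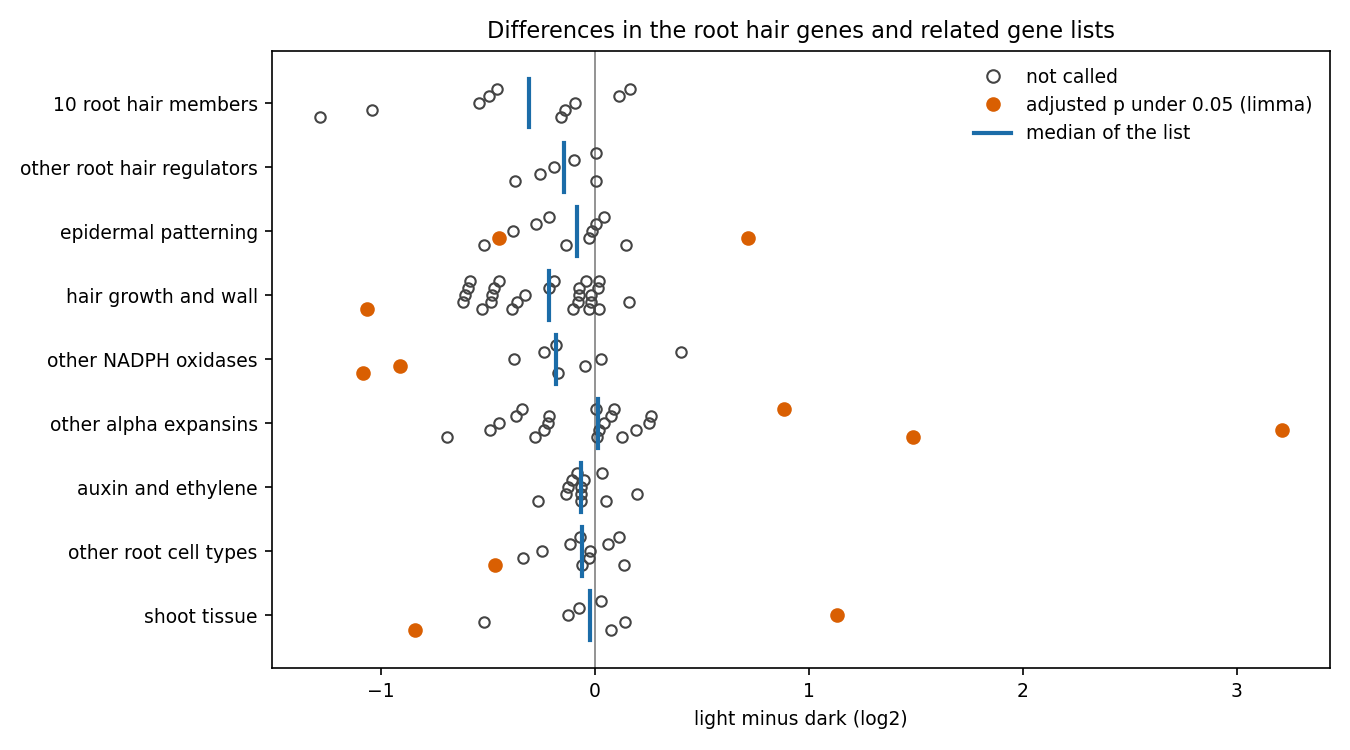
Light minus dark difference (log2, horizontal axis) of every measured gene in the root hair group and in 8 related gene lists (rows), with filled points for an adjusted p under 0.05 in limma, open points for the rest and a vertical bar for each list's median. The bar of the 10 root hair genes is at -0.31, and the 3 filled expansins lie to the right, EXPA12 at 3.21.

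Auxin and ethylene promote hair growth, and of 12 genes of those pathways limma called 0 (5.73% of loci were called). At an unadjusted p under 0.05, 1 of the 12 was lower, below the 12.1% of loci, and the list median was -0.06. The ethylene receptor gene ETR1 differed by -0.27 (SE 0.09, adjusted p = 0.150 in limma). The auxin response factor gene ARF19 differed by -0.13 (SE 0.07, adjusted p = 0.363).

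Markers of other root cell types bear on whether the makeup of the harvested roots differed. Over all loci 3.27% rose and 2.46% fell. Of 11 such markers, 0 rose and 1 fell, the vessel regulator VND7 by 0.47 (SE 0.08, adjusted p = 0.0323 in limma), a call lost without any 1 array (adjusted p up to 0.124). The summed log2 level of the 11 ranged from 141.7 to 144.0 on the dark arrays and from 140.9 to 142.1 on the light arrays, and the list median was -0.06. In 3 of the 11 every light array was below every dark array, against 16.2% of loci. These were VND7, the endodermis regulator SCR (-0.34, SE 0.07, adjusted p = 0.0603 in limma) and the stele regulator SHR (-0.25, SE 0.10, adjusted p = 0.224). All 11 were chosen with earlier results of these data known. The other endodermis markers, CASP1 and MYB36, differed by -0.03 and -0.02, and the stele marker APL by 0.14. The groups of these genes overlapped (adjusted p = 0.872, 0.929 and 0.489 in limma). In the root cap markers SMB and BRN1 the differences were -0.07 and 0.06, and their groups overlapped too. WOX5, PLT1 and PLT2, of the quiescent centre and meristem, differed by 0.11, -0.12 and -0.06 with overlapping groups. Light replicate 3 was the lowest light array for 3 of the 11. The part of cell makeup in the values of the root hair genes was not tested.

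Of 8 markers of shoot tissue, 1 rose and 1 fell, against 3.27% and 2.46% of loci. KNAT1, a homeobox gene of the shoot meristem, rose by 1.13 (SE 0.15, adjusted p = 0.0147), and STM, another such gene, fell by 0.84 (SE 0.12, adjusted p = 0.0202 in limma). The KNAT1 call was lost without dark replicate 1, 2 or 3 (adjusted p up to 0.0702) and the STM call in every fit without 1 array except that without dark replicate 2 (up to 0.0894). The summed log2 level of all 8 markers was 61.1 to 62.7 in dark and 60.7 to 61.9 in light. Most of the list, 7 of 8, was in the dimmest 3 of 10 signal classes, STM included.

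The mean profile of the 10 genes, each centred on its own mean over the 6 arrays, stood at 0.14, 0.22 and 0.23 on the dark arrays and at -0.08, -0.07 and -0.44 on the light arrays. COW1 and LRL3 were the genes nearest to it, at Euclidean distances of 0.27 and 0.31, and RSL3, RSL2 and RHD6 the farthest, at 1.31, 0.94 and 0.82. The 5 other loci nearest to this profile over the 6 arrays were AT4G20740 (EMB3131), AT1G60505, AT1G15530, AT5G54300 and AT5G44030 (CESA4), at distances from 0.076 to 0.096. AT4G20740 read 11.29, 11.32 and 11.33 in dark and 10.96, 11.05 and 10.66 in light. CESA4, a cellulose synthase subunit of secondary walls, differed by -0.36 (SE 0.10), and none of the 5 loci passed limma's test (adjusted p from 0.106 to 0.169). These loci were picked by their values on the same arrays, so their differences are no independent result.

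**Figure D4:**
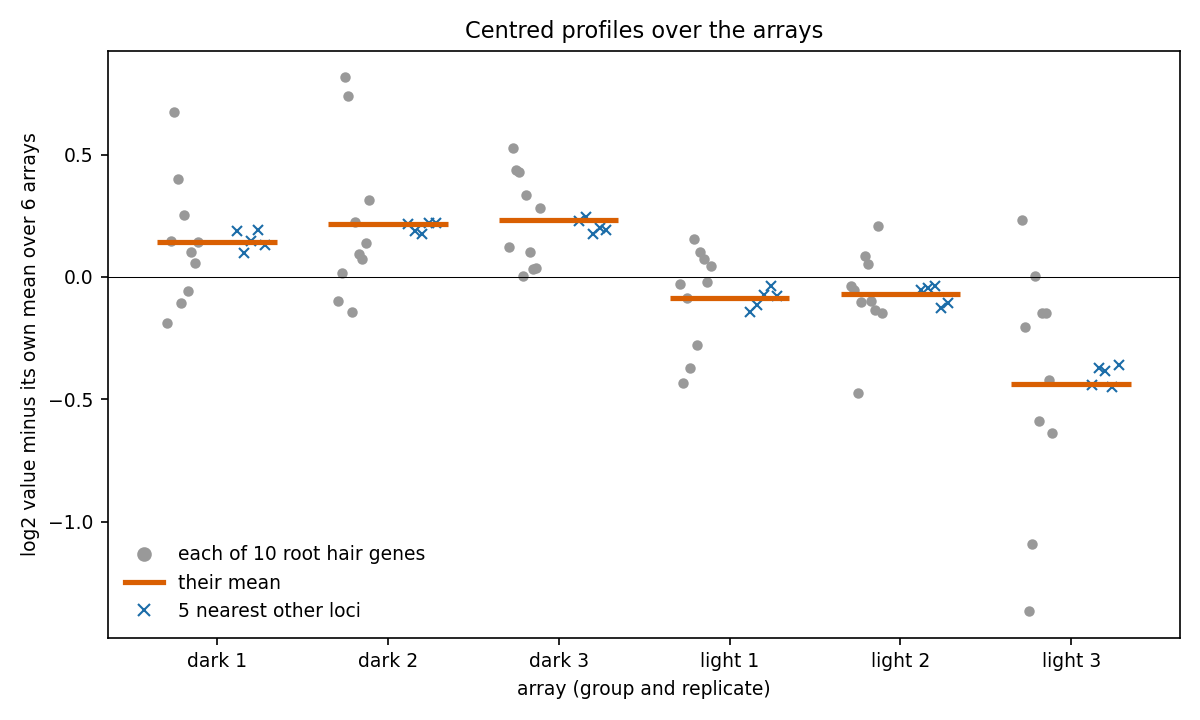
Log2 value minus its own mean over the 6 arrays (vertical axis) on each array (horizontal axis) for the 10 root hair genes (grey dots), their mean (orange bars) and the 5 other loci nearest to that mean (blue crosses). The mean is above 0 on the dark arrays and lowest, at -0.44, on light replicate 3, where RSL3 and RSL2 lie far below it.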

How the data were processed

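RNA of whole roots was copied into Cy3-labelled cDNA and hybridised to one-colour NimbleGen arrays, per the labels' protocols. The deposited values are taken as log2 expression values from their range, for 37118 transcript models. Their sorted values were equal within 0.01 between the 6 arrays, so they had been quantile normalized, and the submitters' processing notes name limma. The sources used here do not give the background correction, the probe summary or the annotation release. Array number, 3 per group, limits the precision.

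No further scaling was applied. The model with the highest mean stood for a locus (3602 loci had several). The difference of light from dark was tested by lmFit and eBayes of limma 3.58.1 (R 4.3.3, two-sided, no covariate) and adjusted by Benjamini-Hochberg over all 37118 models. The fit was also run on simulated data with known shifts and independent noise. Those data lacked the shared deviation of light replicate 3, so that run does not bear on it. Loci were looked up in RefSeq (TAIR10.1), where 31993 of 32627 were found. Printed symbols are those given there apart from RSL3, WER and BRN1, the last 2 listed there as MYB66 and NAC015. RSL3 has no symbol there and is named after its locus by the choice of genes. Near-identical family members may share probe signal.

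The members and lists were chosen with earlier results of these data known. Named genes are the 10 members, the root cell type markers, up to 4 called genes with the lowest p per list (otherwise the 2 with the lowest p) and the 5 nearest profiles. Shoot markers other than KNAT1 and STM are given only within their list. The labels do not state that a shared replicate number pairs arrays, so the numbers were not used as pairs. Deviations from the group means correlated at 0.01, 0.06 and 0.41 between arrays with the same number. Between arrays with different numbers they correlated from -0.40 to 0.36. With 3 arrays per group these values cannot decide whether the arrays were paired. Alternatives were leaving out each array, a replicate block, normalizing again, median centring, a filter at the 25th percentile of signal, another variance prior, array weights and the mean of a locus's models. Sequences were not used here. Figures were drawn with matplotlib 3.10.9 in Python 3.11.15.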

Additional observations from a re-analysis of the deposited data

How the results depend on the processing

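No member was called higher under any alternative, and none lower without any 1 array, with a replicate block, normalized again, median centred, filtered, weighted or averaged over models. The trend and robust prior called 3 members lower, and an unadjusted p under 0.05 counts 5. The median difference ranged from -0.42 to -0.20 without 1 array. Of the members' own differences only that of EXPA18 turned direction, to 0.015 without light replicate 3, in a range from -0.30 to 0.015 without 1 array. The non-hair marker WER ranged from -0.10 to 0.095, turning to 0.095 without dark replicate 3 and to 0.02 without light replicate 2, and passed in no fit.

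Counts for the lists changed as follows. Without 1 array, 0 patterning genes rose or fell (1 and 1 with all arrays), 0 other root cell type markers fell (1), 0 or 1 hair growth genes fell (1), 0 to 2 oxidases fell (2), and 0 or 1 shoot markers rose and fell (1 and 1). With a replicate block all of these counts were 0. Calls over all 32627 loci also fell without 1 array, to 543 to 800 higher and 141 to 427 lower. The filter at the 25th percentile called more loci in general, 1417 higher and 1447 lower of 24026. With it, 2 patterning genes, 2 other root cell type markers, 1 expansin and 0 shoot markers fell and 1 oxidase rose. With the trend and robust prior, 1 other regulator, 2 patterning genes, 3 hair growth genes, 2 other root cell type markers, 3 expansins and 0 shoot markers fell and 1 oxidase rose. With array weights 1 expansin fell, as did 922 of 32627 loci. At an unadjusted p under 0.05, 12.1% of loci were lower and 9.08% higher. Lower at that threshold were 3 other regulators, 3 patterning genes, 9 hair growth genes, 3 oxidases and 1 auxin or ethylene gene. So were 3 other root cell type markers, 1 shoot marker and 5 expansins. Higher were 1 patterning gene, 1 oxidase, 1 shoot marker and 3 expansins. Over all loci, 1066 rose and 802 fell, against 599 and 262 with a replicate block and 1656 and 1683 with the trend and robust prior. Signal near the top of the scale limits what can be seen for EXPA7, PRP3 and LRX1, and how far RHD2 and COW1 could rise.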
